A study of Homo sapiens with 8 samples.

Results

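The lysosome and autophagy genes described here were 48 genes fixed by symbol, out of 20531 genes listed for each library. They comprised the 3 MiT/TFE transcription factors TFEB, TFE3 and MITF, 7 genes for lysosomal membrane proteins and the proton pump, 22 genes for lysosomal enzymes and their activators, and 16 autophagy genes. Of the 48, 47 were found under the given symbol and ATG14 under its older symbol KIAA0831 by Entrez identifier. All 48 reached a normalised read count of 10 in at least 1 library and were kept with 14429 genes in all, 47 were above 0 in every library, and 38 were at 100 or more in every library. The libraries were poly(A) RNA from the HER2-positive breast carcinoma lines SKBR-3 and BT474m1 in RPMI medium with serum. Cultures of each line were kept for 48 h with the vehicle DMSO, with 300 nM lapatinib, with 300 nM JQ1 or with the combination at these doses, in 8 groups of 1 library. Lapatinib inhibits the EGFR and HER2 kinases, and JQ1 displaces BET bromodomain proteins from acetylated chromatin. Both lines are established tumour lines and each group is 1 culture, so that the spread between cultures is unknown and no test was made.

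Lysosomes digest proteins, glycans and lipids with acid hydrolases, which work in the acid interior that a membrane proton pump maintains. Autophagy delivers cytoplasm to them: the ULK1 kinase and a lipid kinase complex start a membrane, ATG8 proteins such as LC3B are attached to it, cargo receptors tie cargo to ATG8, and the closed autophagosome fuses with the lysosome. TFEB, TFE3 and MITF bind E-boxes in the promoters of many of these genes, and they are held in the cytoplasm when the growth-sensing kinase complex mTORC1 phosphorylates them, a step that RNA levels do not report on.

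The libraries held 21420132 to 34112389 reads on genes. The log2 fold change of a gene is the difference of log2(value + 1), where the value is the authors' normalised read count, and its 95% interval covers counting error only. That interval uses reads without the added 1, so it is not centred on the log2 fold change of genes with few reads. A gene is called higher or lower, and is said to have risen or fallen, at a fold of 2 or more. The summed value of 6 luminal markers in SKBR-3 was 274132 under DMSO, 425549 under lapatinib, 661601 under JQ1 and 572460 under the combination. There 3 of the 6 rose with JQ1 (3.75% of all genes kept) and 4 with the combination (10.8%). Among the 4 was CDH1, which went only from 4.29 to 15.1. In BT474m1 the sum was 186304 to 215853 and 0 of the 6 markers passed 2-fold. Their part in the changes of the members was not tested. Of the 6, EPCAM, KRT8, KRT18, KRT19 and ERBB2 were at 3299.7 or more in every library, whereas CDH1, the epithelial cadherin, was at 2.58 to 15.1 in SKBR-3 and at 19413.5 or more in BT474m1. The summed value of 7 leukocyte markers was 106 in SKBR-3 with DMSO, mostly CSF1R, and 6.13 to 57.4 in the other libraries, and the leukocyte antigen PTPRC was at 3.38 or less. The summed value of 6 fibroblast and endothelial markers was 52.3 to 273 in SKBR-3 and 348 to 1451 in BT474m1, in the latter mostly COL1A1. All 7 proliferation markers fell with lapatinib and with both drugs in both lines, and their sum with lapatinib went from 50334 to 4190 in the SKBR-3 line and from 23888 to 1359.6 in BT474m1. The part of the cell cycle in the values below was not tested.

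Lapatinib raised more members than it lowered in each line, and the combination raised more than lapatinib did. In SKBR-3, 12 of 48 members were higher with lapatinib (11.1% of all genes kept were) and 2 were lower (9.44%). In BT474m1, 7 were higher (14%) and 3 lower (8.06%), so that the share of members that rose there was near that of all genes. The median log2 fold change of the members was 0.67 in SKBR-3 and 0.38 in BT474m1, beside 0.05 and 0.07 over all genes kept, and 41 and 35 of the 48 lay above 0. In both lines 4 members rose (4.39% of all genes kept did), namely CTSF, GABARAPL1, CALCOCO1 and TP53INP1, and CTSL2 and GLA fell in both (4.15%), while TP53INP2 changed past 2-fold in opposite directions (1.03%).

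JQ1 alone moved few members past 2-fold. In SKBR-3, MAP1LC3B and TP53INP1 rose (3.75% of all genes kept) and CTSS and PPT1 fell (11.8%). NEU1, PSAP and TP53INP1 rose in BT474m1 (4.81%), where TFEB, CTSS and CTSZ fell (11.8%). TP53INP1 was the member that rose in both lines (1.16% of all genes kept) and CTSS the member that fell in both (5.31%). Neither call was firm: CTSS rested on 1 read in BT474m1 with an interval that included no change, and TP53INP1 in SKBR-3 went from 1.02 to 0.88 with equal totals and to 0.93 with a pseudocount of 10. Yet 32 members in SKBR-3 and 38 in BT474m1 lay above 0, with medians of 0.24 and 0.28 beside -0.08 and -0.06 over all genes kept. Counted over both lines together, 31 members lay above 0 in each (27.5% of all genes kept), 9 below 0 in each (39.7%) and 0 changed past 2-fold in opposite directions (0.527%). With equal totals in place of the authors' scaling the median in SKBR-3 was 0.09.

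With both drugs against DMSO, 18 members rose in SKBR-3 (10.8% of all genes kept) and 5 fell (20.8%), while in BT474m1 10 rose (14.2%) and 1 fell (15.3%). Their median log2 fold change was 0.77 in SKBR-3 and 0.49 in BT474m1, beside -0.08 and 0.00 over all genes kept. In both lines 7 rose (4.46%): NEU1, PSAP, ATG14, GABARAPL1, GABARAPL2, CALCOCO1 and TP53INP1. CTSS fell in both (8.93%), and 0 changed past 2-fold in opposite directions (1.8%). The fall of CTSS in BT474m1 rested on 1 read. There 0 members were lower with a pseudocount of 10, with a filter at 100 or where the counting interval had to exclude no change. In SKBR-3 the fall of CTSS rested on 2 reads and went from -2.39 to -0.92 with a pseudocount of 10.

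The counts by kind are read against the shares of all genes kept, which for higher calls in SKBR-3 were 11.1% with lapatinib and 10.8% with both drugs, and in BT474m1 14% and 14.2%. For lower calls the shares were 9.44% and 20.8% in SKBR-3, and 8.06% and 15.3% in BT474m1. Among autophagy genes, 6 of 16 rose with lapatinib in the SKBR-3 line and 12 with both drugs, with 0 lower, and their medians were 0.88 and 1.21. In BT474m1 3 rose and 1 fell with lapatinib, 5 rose and 0 fell with both drugs, and the medians were 0.54 and 0.61. The autophagy counts with lapatinib in BT474m1 lay near the shares of all genes. Of the enzymes, 5 of 22 rose and 2 fell with lapatinib in SKBR-3, and 6 rose and 5 fell with both drugs, with medians of 0.72 and 0.70, and both counts of falls lay near the share of all genes. In BT474m1 4 enzymes rose and 2 fell with lapatinib, and 4 rose and 1 fell with both drugs, with medians of 0.48 and 0.57, and the counts of rises lay near the share of all genes. Of the 7 membrane and pump genes, 0 passed 2-fold with either drug alone in either line, and LAMP2 rose with both drugs in BT474m1. Their medians were 0.46 with lapatinib and 0.54 with both drugs in SKBR-3, and -0.15 and 0.23 in BT474m1. With 1 library a group, the differences between kinds were not tested.

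**Figure D1:**
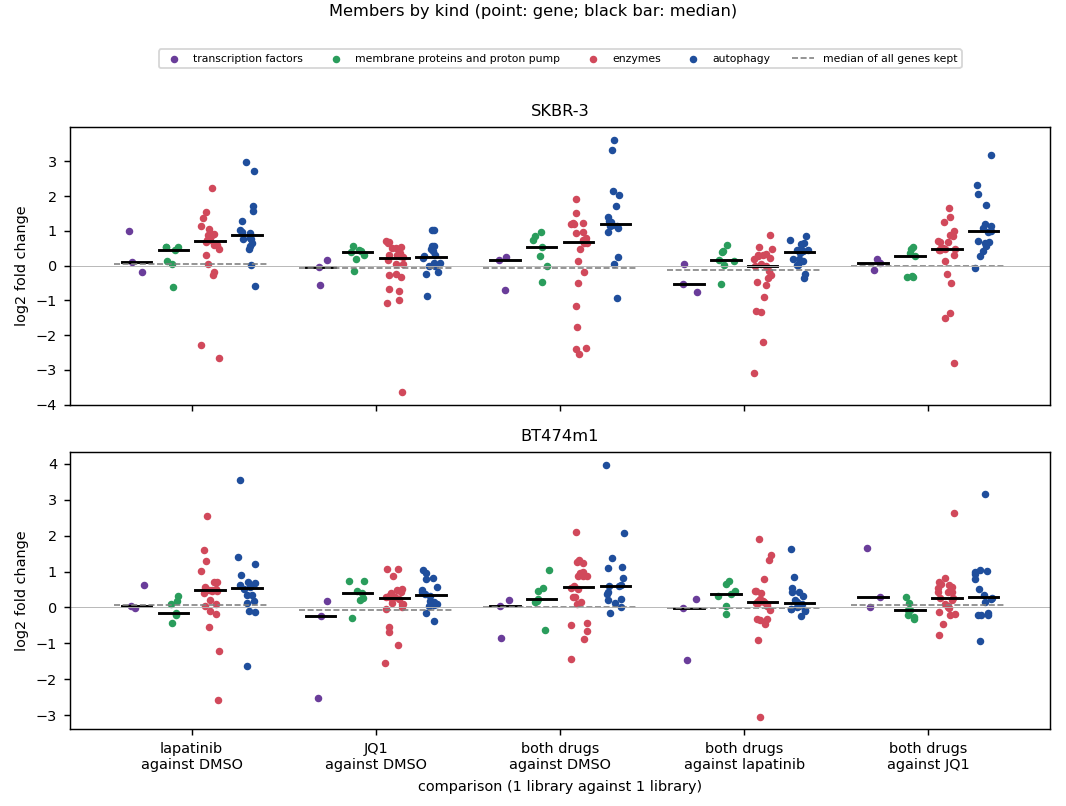
Log2 fold change (vertical axis) of each of the 48 members in 5 comparisons (horizontal axis), coloured by kind, for SKBR-3 (top) and BT474m1 (bottom). Each point is a gene, each black bar the median of a kind and each dashed line the median of all genes kept. Autophagy genes sit highest with lapatinib and with both drugs in SKBR-3, with medians of 0.88 and 1.21.

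The members together took 0.93% of the summed values in SKBR-3 under DMSO, 1.79% under lapatinib, 1.05% under JQ1 and 2.01% under the combination. In BT474m1 the shares were 0.558%, 0.733%, 0.762% and 0.956% in the same order. Cathepsin D (CTSD), prosaposin (PSAP) and palmitoyl-protein thioesterase 1 (PPT1) alone took 0.546%, 1.2%, 0.609% and 1.34% in SKBR-3, and between 0.121% and 0.248% in BT474m1. Without these 3 genes the members still took 0.384% of the SKBR-3 values with DMSO and 0.675% with both drugs. Per kilobase of the MANE Select transcript, the highest levels in SKBR-3 with DMSO were those of CTSD at 17663, PPT1 at 10606 and PSAP at 9388 normalised counts. In BT474m1 with DMSO the highest levels per kilobase were those of the tetraspanin CD63 at 5428, PSAP at 4195 and LAMP1 at 2159, and CTSD stood at 2119.9.

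TFEB was the MiT/TFE gene whose RNA moved. Its normalised count in SKBR-3 was 188 under DMSO, 379 under lapatinib, 212 under JQ1 and 223 under the combination. In BT474m1 it was 40.5, 63.3, 6.28 and 22.2 in the same order. TFEB was thus highest with lapatinib in each line, at a log2 fold change of 1.01 (0.79 to 1.23) in SKBR-3 and 0.63 (0.22 to 1.07) in BT474m1. The SKBR-3 change lay at the edge of 2-fold and was 0.95 to 0.99 under a pseudocount of 10 and the other scalings. JQ1 lowered TFEB 5.71-fold in BT474m1, at a log2 fold change of -2.51 (-3.66 to -1.84), and in SKBR-3 the change was 0.17 (-0.07 to 0.41). The combination was 1.79-fold below DMSO in BT474m1, a log2 fold change of -0.84 (-1.46 to -0.31).

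TFE3 and MITF stayed within 2-fold of DMSO. TFE3 ran from 508 to 581 in SKBR-3, in BT474m1 from 645 to 795, and its log2 fold changes against DMSO lay between -0.25 and 0.16. MITF ran from 99.1 to 160.3 in SKBR-3, lowest with both drugs, while BT474m1 held 125 to 146. Its change with both drugs was -0.69 (-1.01 to -0.39) in SKBR-3 and 0.21 (-0.05 to 0.46) in BT474m1.

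Promoters of the members were searched for the E-box letters of these factors. RefSeq (GRCh38.p14) promoter entries of 300 bases, from 250 before to 50 after a start, were found for 36 of the 48 members. The letters TCACGTGA or GTCACGTG, which are E-boxes with flanks that MiT/TFE factors favour, stood on either strand in 7 of the 36 members, beside 2.53% of 35116 promoters of all genes and 5.30% of the 11389 kept genes with an entry. The E-box core CACGTG, which both motifs contain, stood in 10 of the 36 and in 12.4% of those genes, the added members being NEU1, CTSF and CD63. A window for each of the 7 members is printed here, 5′ to 3′ on the strand of the gene, with the flanked E-box in capitals.
CTSD, chr11:1763956-1763985, minus strand: ccggccgcgccCACGTGACcggtccgggtg
LAMP1, chr13:113297199-113297228, plus strand: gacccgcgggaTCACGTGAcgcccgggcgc
ATG14, chr14:55411833-55411862, minus strand: aaacaaaatccCACGTGACtggctctcctc
ATP6V0D1, chr16:67481199-67481228, minus strand: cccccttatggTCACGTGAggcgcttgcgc
GAA, chr17:80101538-80101567, plus strand: gctcccgccggTCACGTGAcccgcctctgc
MCOLN1, chr19:7522598-7522627, plus strand: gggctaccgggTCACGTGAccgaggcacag
CTSA, chr20:45891298-45891327, plus strand: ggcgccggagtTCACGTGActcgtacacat

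All these E-boxes lie upstream of an annotated start, and CTSD and ATG14 hold GTCACGTG read on the opposite strand. With JQ1 the 7 members lay above 0 in both lines (27.5% of all genes kept did), with medians of 0.39 in SKBR-3 and 0.41 in BT474m1. With equal totals ATG14 in SKBR-3 went from 0.07 to -0.07. The other 29 members with an entry had medians of 0.04 and 0.19, and 15 and 20 of them lay above 0. With both drugs against DMSO the medians were 1.15 for the 7 and 0.54 for the 29 in SKBR-3, and 0.55 and 0.29 in BT474m1. With lapatinib they were 0.78 and 0.60 in SKBR-3 and 0.21 and 0.34 in BT474m1, so that the order of the groups turned between the lines. A match of letters is a description of the sequence, and binding was not measured.

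The forkhead letters GTAAACA were searched in the same promoters, since the study concerns the forkhead factor FOXA1. The paper's motif GT(A/C)AACA also allows the letters GTCAACA, which were not searched. GTAAACA stood in the promoters of CTSF and CALCOCO2 on either strand, which is 2 of 36 members, and in 3.54% of kept genes with an entry. The count of members lay near that share. Of the 22 enzymes among the members, CTSF had the largest rise under lapatinib in each line, and a link of the letters to it was not tested. The window of CTSF is printed with these letters in capitals, and that of CALCOCO2 is not printed.
CTSF, chr11:66568628-66568656, minus strand: acgtgcctcctGTAAACAagagaacgcgc

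The membrane glycoproteins LAMP1 and LAMP2, which line the lysosome, stayed near or within 2-fold of DMSO. LAMP1 read 7168 under DMSO, 9870 under lapatinib, 9393 under JQ1 and 12984 under the combination in SKBR-3, and 5832, 6563, 7769 and 8538 in BT474m1. LAMP2 read 4302, 6296, 5802 and 8367 in SKBR-3 and 4266, 5294, 7079 and 8748 in BT474m1. Both were lowest with DMSO and highest with both drugs, and LAMP2 reached 2.05-fold in BT474m1, a log2 fold change of 1.04 (1.0 to 1.07), and 1.94-fold in SKBR-3, where a median-of-ratios scaling put it at 1.10. CD63, a tetraspanin of late endosomes, was lowest with both drugs in each line, at log2 fold changes of -0.48 (-0.56 to -0.40) and -0.62 (-0.67 to -0.58). MCOLN1, the calcium channel of the lysosome, was lowest with lapatinib and highest with JQ1 in each line, at 198 and 377 in SKBR-3 and at 107 and 202 in BT474m1.

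The proton pump subunits ATP6V0D1 and ATP6V1H and the accessory subunit ATP6AP1 stayed within 2-fold in every drug comparison. Their log2 fold changes against DMSO were 0.15 to 0.73 in SKBR-3 and -0.21 to 0.45 in BT474m1. With JQ1 each of the 3 subunits was above DMSO in both lines. ATP6V0D1, part of the membrane sector, with DMSO was 2.22-fold higher in BT474m1 cells.

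Cathepsins, the lysosomal proteases, moved in both directions. CTSF, a cysteine protease, read 56.5 under DMSO, 268 under lapatinib, 33.5 under JQ1 and 109 under the combination in SKBR-3. In BT474m1 CTSF read 60.3, 359, 41.1 and 260.1. The lapatinib library was highest and the JQ1 library lowest in each line, and the log2 fold changes with lapatinib were 2.22 (1.89 to 2.62) and 2.55 (2.29 to 2.86). Added to lapatinib, JQ1 lowered CTSF 2.45-fold in SKBR-3, and in BT474m1 the log2 fold change was -0.46 (-0.65 to -0.29), within 2-fold.

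CTSL2, now named CTSV and a close relative of cathepsin L, went the other way. It read 220.5, 34.5, 186 and 64.7 in SKBR-3 and 102, 16.3, 110.1 and 64.1 in BT474m1, in the order DMSO, lapatinib, JQ1 and both drugs. Lapatinib gave the lowest value in each line, 6.25-fold and 5.98-fold below DMSO, at log2 fold changes of -2.64 (-3.16 to -2.22) and -2.58 (-3.29 to -2.07). Adding JQ1 to lapatinib was followed by values 1.85-fold higher in SKBR-3 and 3.77-fold higher in BT474m1. Reads of CTSL2 and its relative CTSL1 may be divided by estimation, and CTSL1 read 820 with DMSO and 703 with lapatinib in SKBR-3, and 535 and 1513 in BT474m1.

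CTSD, the aspartic protease, was the highest member per kilobase in all 4 SKBR-3 libraries. Its normalised counts there were 36297, 75079, 57525 and 104771, lowest with DMSO and highest with both drugs, and the combination was 2.89-fold above DMSO, a log2 fold change of 1.53 (1.51 to 1.54). In BT474m1 CTSD ran only from 4356 to 5377, and with both drugs its log2 fold change was 0.30 (0.26 to 0.35). With DMSO the BT474m1 value of CTSD was 8.33-fold lower. With lapatinib CTSD rose 2.07-fold in SKBR-3, and under equal totals the change fell just short of the call.

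The cathepsins CTSH, CTSZ and CTSS had their falls in libraries with JQ1. CTSH, an aminopeptidase, read 256, 227, 128 and 48.8 in SKBR-3, where both drugs gave a log2 fold change of -2.36 (-2.78 to -2.02), and 549, 378, 344 and 301 in BT474m1, where it was -0.86 (-1.02 to -0.71). CTSZ, a carboxypeptidase, fell 2.23-fold with both drugs in SKBR-3 and 2.05-fold with JQ1 in BT474m1. CTSS, a protease that is abundant in antigen-presenting cells, read 11.5, 19.1, 0 and 1.38 in SKBR-3 and 3.30, 12, 0.483 and 0.583 in BT474m1. All these values are below 20 normalised counts, and the fall with JQ1 in SKBR-3, where the gene is at 0, is at least 5.93-fold against a floor of 3 reads per library. The interval in BT474m1, -8.27 to 0.19, includes no change. With a pseudocount of 10 no change of CTSS in BT474m1 against DMSO was past 2-fold, and in SKBR-3 the change with both drugs was -0.92. The sum of the leukocyte markers was 106, 57.4, 14.2 and 8.94 in the same SKBR-3 libraries and 6.13 to 10.5 in BT474m1, and its part in the CTSS values was not tested.

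Among the other proteases, CTSA, a carboxypeptidase that also protects other hydrolases, rose 2.34-fold with both drugs in SKBR-3 and was 1.89-fold higher in BT474m1. CTSB was 1.98-fold and 1.83-fold higher with both drugs. TPP1, a tripeptidyl peptidase, rose 2.02-fold with lapatinib and 2.37-fold with both drugs in BT474m1, where the change with lapatinib was 0.96 with a median-of-ratios scaling, and in SKBR-3 TPP1 was 1.52-fold and 1.10-fold higher.

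Of the glycan-digesting enzymes, GLA, the alpha-galactosidase, stood apart. Its values were 503 under DMSO, 103 under lapatinib, 604 under JQ1 and 85.3 under the combination in SKBR-3, and 244, 104, 300.0 and 261 in BT474m1. Lapatinib lowered GLA 4.87-fold in SKBR-3 and 2.33-fold in BT474m1, at log2 fold changes of -2.28 (-2.57 to -2.03) and -1.22 (-1.48 to -0.97). With both drugs GLA stayed low in SKBR-3, at -2.55 (-2.85 to -2.28), but in BT474m1 it was at the DMSO level, at 0.10 (-0.09 to 0.28). HNRNPH2, which neighbours GLA, was at 0.40 and 0.34 with lapatinib, above DMSO in both lines.

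NEU1, the lysosomal sialidase, read 541, 1043, 891 and 1266 in SKBR-3 and 1197, 1046, 2493 and 2874 in BT474m1. The combination gave the highest value in each line, at log2 fold changes of 1.22 (1.10 to 1.35) and 1.26 (1.19 to 1.33). With lapatinib alone NEU1 was 0.95 (0.82 to 1.08) above DMSO in SKBR-3 and -0.19 (-0.28 to -0.11) in BT474m1, whereas with JQ1 it was 0.72 and 1.06. GAA, the acid alpha-glucosidase, rose 2.92-fold with lapatinib and 2.28-fold with both drugs in SKBR-3, and was 1.62-fold and 1.85-fold higher in BT474m1. GUSB, the beta-glucuronidase, rose 2.46-fold with lapatinib in BT474m1 and was 1.23-fold higher in SKBR-3.

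The remaining glycan enzymes GLB1, HEXA, MAN2B1 and NAGLU and the sulfamidase SGSH stayed within 2-fold of DMSO. Their log2 fold changes with lapatinib were 0.49 to 0.90 in SKBR-3 and -0.09 to 0.58 in BT474m1. With both drugs they were 0.64 to 0.79 and -0.44 to 0.89. NAGLU, which digests heparan sulfate together with SGSH, was the enzyme of these that lay below DMSO with both drugs in BT474m1, at -0.44 (-0.60 to -0.29), and it was 0.74 (0.50 to 0.98) in SKBR-3.

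PSAP, the precursor of the saposins that present sphingolipids to hydrolases, rose with the combination in both lines. Its values were 25798, 67097, 37487 and 98352 in SKBR-3 and 11527, 16417, 24024 and 28639 in BT474m1. DMSO was lowest and the combination highest in each line, at log2 fold changes of 1.93 (1.91 to 1.95) and 1.31 (1.29 to 1.34). The second-highest library was lapatinib in SKBR-3, at 1.38, and JQ1 in BT474m1, at 1.06.

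PPT1, which removes fatty acids from proteins, read 24223, 53949.5, 11438 and 21233 in SKBR-3 and 3606, 4986, 3476 and 5420.4 in BT474m1. In SKBR-3 lapatinib raised PPT1 2.23-fold and JQ1 lowered it 2.12-fold, and with both drugs it was near DMSO, at a log2 fold change of -0.19 (-0.21 to -0.17). The fall with JQ1 in SKBR-3 was just short of the call with a median-of-ratios scaling. In BT474m1 JQ1 left PPT1 at -0.05 (-0.10 to -0.01) and both drugs at 0.59 (0.54 to 0.63). The span of CAP1 overlaps PPT1, and with JQ1 in SKBR-3 CAP1 was at 0.40, above DMSO. ASAH1, the acid ceramidase, rose 2.31-fold with both drugs in SKBR-3 and was 1.93-fold higher in BT474m1, and LIPA, the acid lipase, stayed within 2-fold of DMSO, at -0.50 to 0.41.

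**Figure D2:**
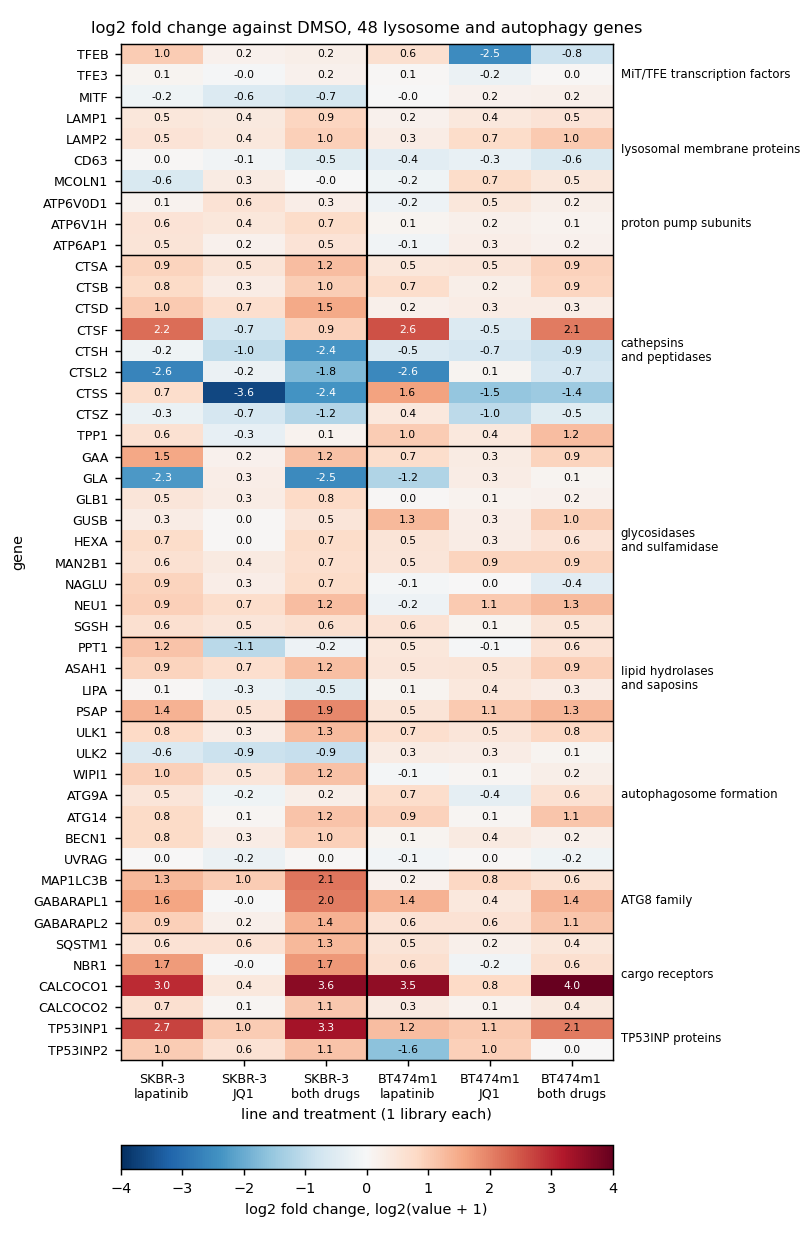
Heat map of the log2 fold change against DMSO (colour and printed number) for the 48 members (vertical axis, grouped by role) under lapatinib, JQ1 and both drugs in SKBR-3 and BT474m1 (horizontal axis, 1 library each). CALCOCO1 is the darkest red with both drugs, at 3.62 and 3.98, and CTSS, CTSL2, GLA and TFEB hold the darkest blues, where the CTSS value with JQ1 in SKBR-3 rests on 0 reads and on the pseudocount.

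Among genes that start the autophagosome, ATG14, which targets the lipid kinase complex to autophagy, rose with both drugs in each line. It read 286, 491, 300.3 and 637 in SKBR-3 and 475, 895, 505 and 1036 in BT474m1. In each line the DMSO and JQ1 libraries were low and those with lapatinib high, and the log2 fold changes with both drugs were 1.15 (0.99 to 1.33) and 1.12 (1.01 to 1.24). With lapatinib alone ATG14 was at 0.78 and 0.91, within 2-fold. FBXO34, whose span overlaps ATG14, was at 0.64 and 0.25 with lapatinib.

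WIPI1, which binds the lipid that this complex makes, rose in SKBR-3 with both drugs. There it read 1152, 2253, 1596 and 2574, and with both drugs it was 2.23-fold above DMSO. ARSG and PRKAR1A, whose spans overlap WIPI1, were at 0.88 and 0.56 in the same comparison, and the division of reads among these genes was not tested. In BT474m1 WIPI1 read 203, 192, 215 and 239, with a log2 fold change of 0.23 (0.04 to 0.43) for both drugs. ULK2, a homologue of the ULK1 kinase, read 35.1, 23.0, 18.7 and 17.9 in SKBR-3 and 359, 455, 445 and 389 in BT474m1, which was 9.97-fold higher with DMSO. ULK1 itself rose 2.4-fold with both drugs in SKBR-3 and was 1.78-fold higher in BT474m1. ATG9A, BECN1 and UVRAG stayed within 2-fold of DMSO, with log2 fold changes of -0.37 to 0.96, and UVRAG ran from -0.23 to 0.04.

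The 3 ATG8 genes among the members, whose proteins mark the autophagosome membrane, rose with both drugs in SKBR-3, where their relatives GABARAP and MAP1LC3A were at log2 fold changes of 0.75 and -0.71. GABARAPL1 read 224, 668, 222 and 929 in SKBR-3 and 496, 1310, 671 and 1280 in BT474m1. Its libraries with lapatinib stood above those without in each line, at log2 fold changes with lapatinib alone of 1.57 (1.39 to 1.77) and 1.40 (1.29 to 1.51). GABARAPL2 read 454, 876, 526 and 1200.3 in SKBR-3 and 1011, 1494, 1513 and 2181 in BT474m1, highest with both drugs, at 1.40 (1.27 to 1.54) and 1.11 (1.03 to 1.19).

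MAP1LC3B, which encodes LC3B, read 752, 1845, 1524 and 3342 in SKBR-3 and 1654, 1873, 2916 and 2519.5 in BT474m1. In SKBR-3 each drug raised MAP1LC3B and the combination was highest, at a log2 fold change of 2.15 (2.05 to 2.25). The rise with JQ1 there was 1.02 and went to 0.87, below the call, with equal totals. In BT474m1 JQ1 alone gave the highest value, at 0.82 (0.76 to 0.88), and lapatinib was at 0.18 (0.11 to 0.25). A near-identical gene, MAP1LC3B2, carried 0.228 to 0.294 of the MAP1LC3B value in the 8 libraries, so that the division of reads between this pair is uncertain.

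CALCOCO1, a cargo receptor for the endoplasmic reticulum and Golgi, had the largest rise of all members. It read 95.9 under DMSO, 759 under lapatinib, 129 under JQ1 and 1190.0 under the combination in SKBR-3, and 325, 3794, 569.6 and 5136 in BT474m1. Both libraries with lapatinib stood far above both without it in each line. CALCOCO1 was 7.84-fold higher with lapatinib in SKBR-3 and 11.6-fold higher in BT474m1, at log2 fold changes of 2.97 (2.72 to 3.26) and 3.54 (3.43 to 3.66), and both drugs gave 12.3-fold and 15.7-fold.

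Its relative CALCOCO2, also called NDP52 and known as a receptor for bacteria and damaged mitochondria, differed by line and less by drug. It read 377, 593, 397 and 800.0 in SKBR-3 and 6197, 7869, 6834 and 8095 in BT474m1, 16.4-fold higher with DMSO. Both drugs raised CALCOCO2 2.12-fold in SKBR-3, a call that fell just short of 2-fold with equal totals, and in BT474m1 its log2 fold change was 0.39 (0.35 to 0.42). NBR1, a receptor for ubiquitin-tagged cargo, rose 3.26-fold with lapatinib and 3.32-fold with both drugs in SKBR-3, and was 1.55-fold and 1.56-fold higher in BT474m1. SQSTM1, the receptor p62, rose 2.46-fold with both drugs in SKBR-3 and was 1.36-fold higher in BT474m1.

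TP53INP1, a p53-induced protein that binds ATG8 proteins, was the member that rose in all 6 comparisons with DMSO. It read 68.7, 457, 140.5 and 706 in SKBR-3 and 2772, 6469, 5765 and 11634 in BT474m1, 39.8-fold higher in the latter with DMSO. DMSO was lowest and the combination highest in each line, at log2 fold changes of 3.34 (3.06 to 3.68) and 2.07 (2.03 to 2.11). With JQ1 alone the changes were 1.02 (0.68 to 1.39) and 1.06 (1.01 to 1.10), and that of SKBR-3 was 0.88 with equal totals and 0.93 with a pseudocount of 10. NDUFAF6 overlaps the span of TP53INP1.

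TP53INP2, its homologue and also an ATG8-binding protein, went opposite ways in the lines under lapatinib. It read 7457, 15056, 11108 and 16468 in SKBR-3 and 4073, 1317, 7878 and 4092 in BT474m1. Lapatinib raised TP53INP2 2.02-fold in SKBR-3, at 1.01 (0.98 to 1.05), and lowered it 3.09-fold in BT474m1, at -1.63 (-1.70 to -1.56). With JQ1 TP53INP2 was above DMSO in both lines, at 0.57 (0.54 to 0.61) and 0.95 (0.91 to 0.99). Opposite changes past 2-fold with lapatinib were seen for 1.03% of all genes kept, and the rise in SKBR-3 was at 0.96 with equal totals and 0.996 with a median-of-ratios scaling.

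**Figure D3:**
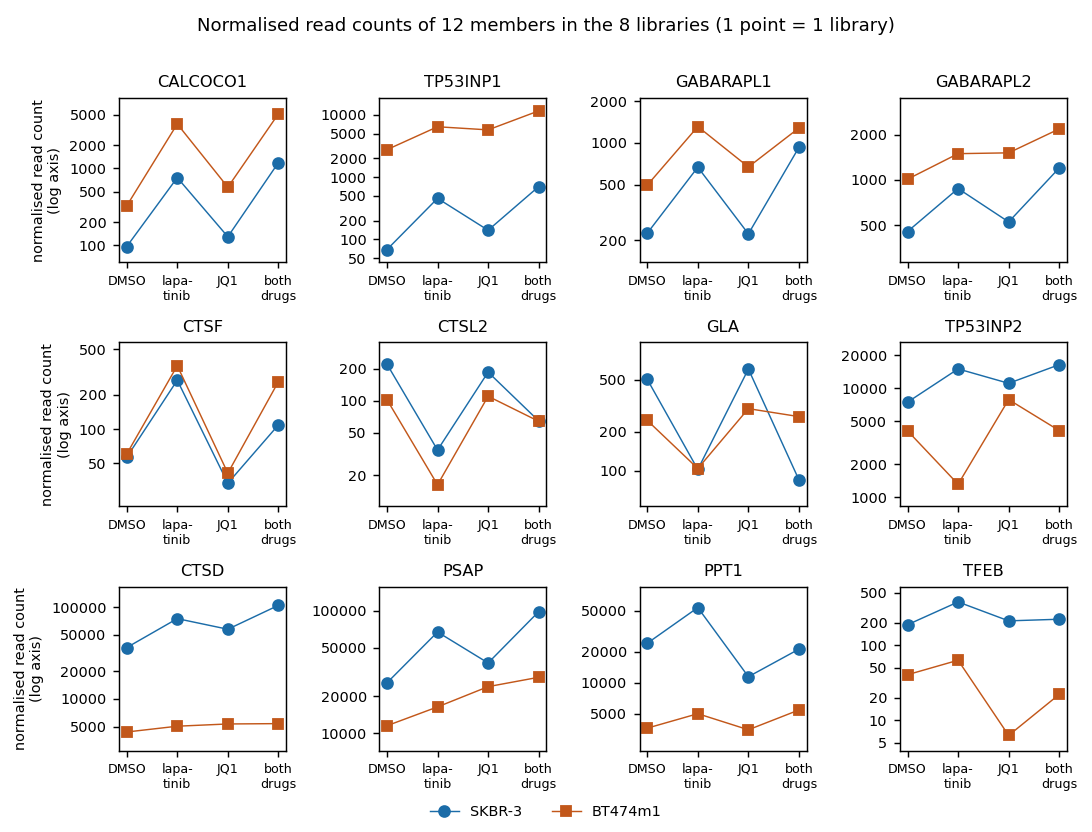
Normalised read counts (vertical log axes) of 12 members with DMSO, lapatinib, JQ1 and both drugs (horizontal axes) in SKBR-3 (blue circles) and BT474m1 (orange squares), 1 point a library and lines joining the libraries of a line. CALCOCO1 and CTSF are highest in libraries with lapatinib, and CTSL2 is lowest with lapatinib alone in each line. GLA is low with lapatinib in each line and lowest with both drugs in SKBR-3. With lapatinib TP53INP2 rises from 7457 to 15056 in SKBR-3 but goes from 4073 to 1317 in BT474m1.

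The untreated lines were compared in the members as well. With DMSO, 14 members were higher in BT474m1 (26.8% of all genes kept) and 13 were lower (15.6%). The median log2 difference of the members was 0.22 beside 0.21 over all genes kept. The count of higher members and the median lay near those of all genes, and the count of lower members lay above the share. Autophagy genes were higher in BT474m1 in 9 of 16 cases, with 1 lower and a median of 1.13, whereas enzymes were lower in 10 of 22, higher in 3, and had a median of -0.59. Of the 7 members at least 4-fold apart, TP53INP1, CALCOCO2 and ULK2 were higher in BT474m1 (14.7% of all genes kept), and CTSD, PPT1, WIPI1 and TFEB were lower (6.76%). At 4-fold the higher count lay below the share of all genes and the lower count near it. With a median-of-ratios scaling 8 members in place of 14 were higher in BT474m1 and the median was 0.0676, and ATP6V0D1, CTSH, NEU1, MAP1LC3B, GABARAPL1 and NBR1 were no longer called. The same scaling moved the median of all genes kept by -0.15.

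The direction of the drug changes was shared by many members across the lines. With lapatinib 33 members lay above 0 in both lines (37.6% of all genes kept) and 5 below (28.6%), and with both drugs 34 (31.3%) and 5 (35.5%). The comparisons with DMSO share the DMSO library of a line, so that they are not independent of each other. Members past 2-fold in SKBR-3 alone with lapatinib were TFEB, CTSD, GAA, PPT1, PSAP, MAP1LC3B and NBR1, and in BT474m1 their log2 fold changes were 0.18 to 0.70. Those past 2-fold in BT474m1 alone were CTSS, TPP1 and GUSB, at 1.6, 1.01 and 1.3, and in SKBR-3 they were at 0.69, 0.60 and 0.29. The difference between the lines was not tested for any of them.

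**Figure D4:**
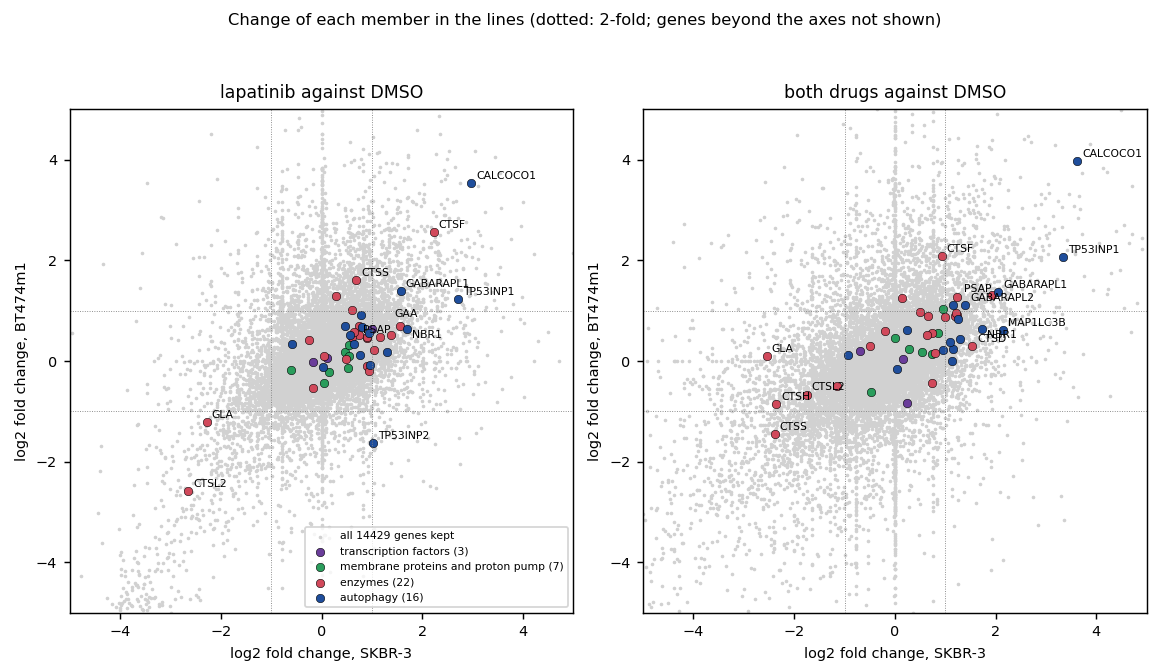
Log2 fold change in BT474m1 (vertical axis) against that in SKBR-3 (horizontal axis) with lapatinib (left) and with both drugs (right), for the 48 members (coloured by kind) and all genes kept (grey); dotted lines mark 2-fold. CALCOCO1 lies at the upper right in both plots, at 2.97 and 3.54 with lapatinib, and TP53INP2 lies at the lower right with lapatinib, at 1.01 and -1.63.

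The combination was also compared with each drug alone. Against lapatinib, 0 members were higher with both drugs in SKBR-3 (3.22% of all genes kept) and CTSF, CTSH, CTSS and PPT1 were lower (16.2%). In BT474m1 CTSL2, GLA, NEU1 and TP53INP2 were higher (5.2%) and TFEB and CTSS were lower (12.5%). In both lines 0 were higher (1.14%), CTSS was lower (6.31%) and 0 changed past 2-fold in opposite directions (0.638%), while 26 lay above 0 (26.1%) and 9 below (37.9%). The medians were 0.15 and 0.16 beside -0.11 and -0.02 over all genes kept. In SKBR-3 the median was 0.31 and CTSL2 and MAP1LC3B were higher with a median-of-ratios scaling, while the mean was -0.0416, opposite in sign to the median. Against JQ1, 12 members were higher with both drugs in SKBR-3 (9.79%) and CTSH, CTSL2 and GLA lower (12.3%). In BT474m1 TFEB, CTSF, ATG14, CALCOCO1 and TP53INP1 were higher (12.4%) and 0 were lower (7.27%). Of these, TFEB went from 1.67 to 0.98 with a pseudocount of 10, and median-of-ratios scaling left ATG14 at 0.97 and TP53INP1 at 0.95 and put TP53INP2 at -1.01, so that 3 were higher and 1 lower. In both lines 4 were higher (3.6%), 0 lower (3.95%) and 0 past 2-fold in opposite directions (1.07%), while 30 lay above 0 (34.4%) and 8 below (29.8%).

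The log2 change with the combination was next compared with the summed log2 changes of the separate drugs. In SKBR-3, 1 member departed from that sum upward by 2-fold or more (3.9% of all genes kept) and 1 downward (7.58%), namely CTSL2 at 1.14 and CTSH at -1.20 on the log2 scale. In BT474m1 TFEB at 1.04, CTSL2 at 1.81 and GLA at 1.02 lay above the sum (4.72%), and CTSS at -1.51 lay below it (4.73%), with 1 read of CTSS in each library with JQ1. With a pseudocount of 10, 0 members lay above the sum in SKBR-3, and in BT474m1 1 lay above and 0 below. The remaining 46 and 44 members lay within 2-fold of the sum, which in BT474m1 was near the share of all genes. The median departure of the members was -0.12 in SKBR-3 and -0.06 in BT474m1, beside -0.06 and 0.01 over all genes kept.

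Other genes of the pathway, listed by role, gave counts to read beside the shares of all genes kept that rose or fell with lapatinib, 11.1% and 9.44% in SKBR-3 and 14% and 8.06% in BT474m1. Of 26 other lysosomal hydrolases, 9 rose and 0 fell with lapatinib in SKBR-3, and 7 rose and 1 fell in BT474m1, with ARSA at 1.06 and 1.10 and IDS at 1.03 and 1.03, 2 sulfatases, and the cathepsin CTSO at 2.82 and 1.12. With both drugs ARSB, another sulfatase, fell in both lines, at -2.22 and -2.22. Of 16 other lysosomal membrane proteins, 1 rose and 0 fell with lapatinib in each line. With both drugs 2 of them rose and 2 fell in SKBR-3 (10.8% and 20.8% of all genes kept). In BT474m1 2 rose and 1 fell with both drugs (14.2% and 15.3%), and CLN3 fell in both lines, at -1.19 and -1.82. Of 19 other proton pump subunits, 4 rose and 0 fell with lapatinib in SKBR-3 and 2 rose and 0 fell in BT474m1, and ATP6V1C2 rose with both drugs, at 2.16 and 2.62, while ATP6V0A4 fell, at -1.85 and -1.41. With lapatinib the counts of membrane proteins in each line, and of pump subunits in BT474m1, were below the share of all genes that rose.

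Among the 9 genes of mannose 6-phosphate sorting, the route by which hydrolases reach the lysosome, 0 passed 2-fold with lapatinib in either line. Of 26 other genes of autophagosome formation, lapatinib raised 4 in SKBR-3 and 2 in BT474m1, with 0 lower, and WDR45, a relative of WIPI1, rose in both, at 1.26 and 1.52. Of 15 other ATG8 genes and selective receptors, 0 rose in SKBR-3 and CCPG1, a receptor for the endoplasmic reticulum, rose in BT474m1, at 1.40, and was at 0.89 in SKBR-3. Of 14 genes of autophagosome and lysosome fusion, 1 rose in SKBR-3, PLEKHM1 at 1.0, and 0 in BT474m1. Of 23 genes that control mTORC1 and the MiT/TFE factors, 2 rose and 0 fell with lapatinib in each line, and DEPTOR, an mTOR inhibitor, rose in both, at 1.33 and 2.27. For sorting, receptors, fusion and mTORC1 control, the counts of rises in each line were below the share of all genes, as was that of autophagosome formation in BT474m1.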

How the data were processed

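Poly(A) RNA of 8 cultures was grouped by the labels, with 1 library in each group. The authors estimated read counts per gene with RSEM and scaled them to an upper quartile of about 1000 in each library, and this deposited signal has no further unit. Per the labels, the build is hg19 and the kit is named as both an unstranded and a stranded one, so the use of strand is uncertain. The study's methods name another build and another aligner, and the labels were followed.

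The value of 1 read was recovered as the common step between values (0.471 to 0.766 units), and 83.8% to 85.2% of values were whole reads within a tolerance of 0.02. Genes at 10 or more in at least 1 library were kept. Log2 fold changes used a pseudocount of 1, calls a fold of 2, and intervals the exact Clopper-Pearson method at 95% on recovered reads, for counting error only, since PCR reads are not independent molecules. The floor was 3 reads per library. The 48 members and all lists were chosen with earlier results of these data known. Values in every library are given for the MiT/TFE factors and the ATG8 members, for members changed in both lines in 1 direction or with opposite changes in the lines (with 100 or more in a library of each line), and for members at least 4-fold apart between the untreated lines. Other members given library by library (LAMP1, LAMP2, CTSH and CTSS) were chosen after their values were seen. From each other list, the 3 genes with the largest smaller change of the lines, in 1 direction and with 100 or more in a library of each line, were eligible to be named. Lengths are from GENCODE 44 MANE Select transcripts. The spans of 11 members overlap another listed gene in RefSeq. Software was scipy 1.17.1, numpy 2.4.6, matplotlib 3.10.9 and pandas 2.3.3 under Python 3.11.15, and the method was tested on simulated data. Alternatives were a pseudocount of 10, median-of-ratios scaling, equal totals, no filter, a filter at 100, a call at 1.5-fold, a required counting interval, and the mean in place of the median.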

Additional observations from a re-analysis of the deposited data

Results flagged for a closer look

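For 3 members the lines moved in opposite directions, with counting intervals that excluded no change in each line, and at least 2-fold in 1 of them. TP53INP2 differed by -2.64 on the log2 scale (BT474m1 minus SKBR-3) with lapatinib against DMSO, from 1.01 in SKBR-3 and -1.63 in BT474m1. PPT1 differed by 1.47 with both drugs against lapatinib, from -1.35 in SKBR-3 and 0.12 in BT474m1. MAP1LC3B differed by -1.34 with both drugs against JQ1, from 1.13 in SKBR-3 and -0.21 in BT474m1. By the same criteria, 2.47%, 1.91% and 2.65% of all genes kept moved in opposite directions in these comparisons, beside 1 of 48 members in each. With 1 library a group, these differences were not tested.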

How the results depend on the processing

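No analysis paired by replicate was possible, because each group holds 1 library and the labels give no replicate numbers. Each treatment is present in both lines, but an analysis paired by line was not run. No replicate could be left out, and a fit that takes the lines as replicates was not run. None of the 48 members past 2-fold changed sign with a pseudocount of 10, median-of-ratios scaling or equal totals. Counts of members called moved past 1.5 times as follows. At a call of 1.5-fold, lapatinib gave 28 higher and 4 lower in SKBR-3 and 14 higher in BT474m1; JQ1 gave 5 higher and 6 lower in SKBR-3 and 9 higher in BT474m1. Both drugs against DMSO gave 29 higher in SKBR-3 and 21 higher and 5 lower in BT474m1. Against lapatinib they gave 6 and 8 higher, and against JQ1 21 higher in SKBR-3 and 12 higher and 2 lower in BT474m1, with 2 below the sum of the drugs in SKBR-3. At 1.5-fold, the shares of all genes kept that were higher and lower were 23.2% and 18.8% with lapatinib in SKBR-3, 9.49% and 21.5% with JQ1 and 21.5% and 31.9% with both drugs. In BT474m1 they were 24.8% and 15.6%, 11.9% and 21.1%, and 24.8% and 24.6%. Higher calls against lapatinib made up 8.52% in SKBR-3 and 12.7% in BT474m1. Against JQ1 they made up 21% and 22.4%, with 14.5% lower in BT474m1. With a pseudocount of 10, 1 member was higher with JQ1 in SKBR-3, 0 were lower with both drugs in BT474m1, 0 lay above the sum in SKBR-3, and 1 above and 0 below it in BT474m1. With equal totals, JQ1 in SKBR-3 gave 0 higher, 4 lower and a median of 0.0914. With median-of-ratios scaling, 1 was lower with JQ1 in SKBR-3, 2 were higher with both drugs than with lapatinib there, 3 were higher and 1 lower with both drugs than with JQ1 in BT474m1, and 8 were higher in BT474m1 than in SKBR-3 with DMSO. The medians then were 0.91 for both drugs against DMSO and 0.31 against lapatinib in SKBR-3, and 0.0676 between the untreated lines. With a filter at 100, 1 was lower with JQ1 in SKBR-3, 0 with both drugs in BT474m1, 1 against lapatinib there and 0 below the sum, and the median between untreated lines was 0.34. Requiring the counting interval left 0 lower with both drugs in BT474m1. Means in place of medians were 0.0608 for JQ1, 0.58 for both drugs and -0.0416 against lapatinib in SKBR-3 (opposite in sign to the median of 0.15), and 0.18 for JQ1 and 0.34 for both drugs against JQ1 in BT474m1. The median of all genes shifted by over 0.1 in 3 cases: by -0.14 with equal totals for JQ1 in SKBR-3, and with median of ratios by 0.11 for both drugs against lapatinib in SKBR-3 and by -0.15 between the untreated lines. Among the 11758 genes at 100 or more in some library, lapatinib raised 9.66% in SKBR-3 and 9.72% in BT474m1, and 10.5% and 10.4% with both drugs. The causes of these moves were not tested. The design gives no spread between cultures, and low members such as CTSS rest on few reads.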
